A study of Mus musculus with 19 samples.

Results

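Serum amyloid A and other acute phase proteins were followed in the skin of mice with Scl-cGVHD, a sclerodermatous form of chronic graft-versus-host disease induced by a bone marrow transplantation (BMT) and used as a model of systemic sclerosis. The 8 genes were taken by name from a list (Saa1, Saa2, Saa3, Hp, Lcn2, Cp, Hpx and Orm1) out of 50686 genes in the table, and all 8 were measured and passed the filter on low values. The list was selected on measured values, with the difference between Scl-cGVHD and syngeneic mice given control IgG in view, so that difference is given below as a description and is not tested for these genes.

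Skin was taken from 19 mice on day 42 after BMT. Irradiated female BALB/c recipients had received T cell-depleted bone marrow and splenocytes from male B10.D2 donors (Scl-cGVHD, an allogeneic graft mismatched only at minor histocompatibility antigens) or from male BALB/c donors (syngeneic control), and donors and recipients were 8 to 12 weeks old. Mice were then injected intraperitoneally with a neutralizing anti-CX3CL1 mAb (clone 5H8-4) or with control IgG, an anti-DNP mAb, from day 7 to day 35. The groups were syngeneic mice given control IgG (n = 3), syngeneic mice given mAb (n = 5, dose not stated in the labels), Scl-cGVHD mice given control IgG (n = 3), and Scl-cGVHD mice given 0.5 mg (n = 3) or 1 mg of mAb per head (n = 5). Every mouse of the study was therefore irradiated and transplanted, and no untreated skin was analysed here. Levels are TPM, a share of all transcripts of a mouse after correction for gene length, so that levels of different genes can be set side by side within a mouse.

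Acute phase proteins are made mainly by the liver when IL-6, IL-1 and related cytokines signal infection or injury. Saa1 and Saa2 are the serum amyloid A apolipoproteins of the liver response in the mouse, whereas Saa3 is the form made outside the liver by macrophages, adipocytes and epithelia. Haptoglobin (Hp) binds free hemoglobin, hemopexin (Hpx) binds free heme, ceruloplasmin (Cp) is a copper-carrying ferroxidase, lipocalin 2 (Lcn2) keeps iron from bacteria by binding their siderophores, and orosomucoid 1 (Orm1) is a carrier glycoprotein of plasma.

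The Saa genes lie together on chromosome 7 (GRCm38): Saa3 (ENSMUSG00000040026) at 46711998-46715700 on the minus strand, Saa1 (ENSMUSG00000074115) at 46740497-46742980 on the minus strand, and Saa2 (ENSMUSG00000057465) at 46751790-46754313 on the plus strand. Saa4, the constitutive member of the family, was at most 0.16 TPM in every mouse. Lcn2 (ENSMUSG00000026822) lies at 32384633-32388252 of chromosome 2, Cp (ENSMUSG00000003617) at 19957054-20009145 of chromosome 3, Orm1 (ENSMUSG00000039196) at 63344560-63348163 of chromosome 4, Hpx (ENSMUSG00000030895) at 105591613-105600137 of chromosome 7 and Hp (ENSMUSG00000031722) at 109575128-109579172 of chromosome 8. The 250 bases before the RefSeq start (GRCm38.p6) of the Saa genes and of Lcn2 are shown here because Saa3, Saa1 and Lcn2 passed the test at 1 mg against syngeneic mAb below, whereas Saa2, whose promoter is almost a copy of that of Saa1, did not. Capitals mark matches on either strand to the letters TTNNGNAA of C/EBP factors and to those of NF-kB (GGG, any 5 bases, CC), which do not overlap in these sequences although they adjoin in Saa1.
Saa3 (chr7:46715677-46715926, minus strand): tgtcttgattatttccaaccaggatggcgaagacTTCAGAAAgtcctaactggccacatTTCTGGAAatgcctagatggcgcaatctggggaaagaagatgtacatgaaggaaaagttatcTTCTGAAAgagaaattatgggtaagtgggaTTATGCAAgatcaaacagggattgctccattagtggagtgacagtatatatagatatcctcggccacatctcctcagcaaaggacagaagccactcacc
Saa1 (chr7:46742981-46743230, minus strand): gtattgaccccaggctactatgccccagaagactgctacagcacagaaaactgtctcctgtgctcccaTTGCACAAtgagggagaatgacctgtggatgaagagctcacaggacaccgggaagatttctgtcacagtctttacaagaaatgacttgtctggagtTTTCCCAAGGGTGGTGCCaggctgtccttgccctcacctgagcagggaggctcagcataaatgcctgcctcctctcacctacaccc
Saa2 (chr7:46751583-46751832, plus strand): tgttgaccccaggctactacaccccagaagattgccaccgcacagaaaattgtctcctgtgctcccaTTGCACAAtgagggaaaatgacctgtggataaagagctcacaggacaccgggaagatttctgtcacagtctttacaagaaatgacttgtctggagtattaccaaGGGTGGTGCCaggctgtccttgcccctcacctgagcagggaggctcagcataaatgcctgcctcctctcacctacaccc
Lcn2 (chr2:32387740-32387989, minus strand): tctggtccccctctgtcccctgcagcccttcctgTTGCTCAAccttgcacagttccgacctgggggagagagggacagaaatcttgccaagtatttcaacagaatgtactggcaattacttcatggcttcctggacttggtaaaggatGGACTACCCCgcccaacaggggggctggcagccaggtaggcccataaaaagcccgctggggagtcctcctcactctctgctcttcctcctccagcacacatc
The window of Saa3 held 4 C/EBP matches and none to NF-kB, and 0.591% of the 32851 RefSeq promoters of the same length held at least 4. Saa1 and Saa2 were identical at 238 of 251 aligned columns (94.8%), and differed in that Saa1 held 2 C/EBP matches and Saa2 held 1, the second match of Saa1 lying 86 to 79 bases before its start. Both held 1 NF-kB match of the same letters, and Lcn2 held 1 match of each kind. The number of C/EBP matches did not follow the calls. Hpx, which did not pass that test, held 2 in its window (not shown), and Cp, which did not pass either, held 1 in each of its windows. These letters are common, since 36.8% of all promoters held a C/EBP match and 45.8% an NF-kB match. None of the 4 windows shown held the letters TTCNNNGAA of STAT factors, found in 7.02% of promoters. A match is a description of letters and not a bound site. The window of Lcn2 lies within the longer gene model of the deposited table, and those of Saa3 and Saa2 overlap theirs by their last bases.

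Some libraries stood apart from their groups in ways that touch the results. The Scl-cGVHD 0.5 mg mouse ID_1540 had a fibroblast marker sum of 7711 TPM and a wound-activated keratinocyte marker sum of 921 TPM, where the other 10 Scl-cGVHD mice had 245 to 2538 and 2796 to 32498 and the 8 syngeneic mice had 3948 to 11947 and 960 to 3002. The syngeneic mAb mice ID_1533 and ID_1534 had 2.06% and 1.32% of all transcripts in hair keratins, against at most 0.27% in every other mouse. The epidermal markers of the labelled tissue, skin, summed to 7166 to 31379 TPM in all 19 mice. Their sums were 22820 to 30900 TPM in Scl-cGVHD 1 mg mice and 7166 to 14900 TPM in syngeneic mAb mice. Cx3cl1, the transcript of the ligand that the mAb binds, was 3.46 to 9.55 TPM. In whole skin, more cells of a type and more RNA per cell cannot be told apart.

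Saa3 had the widest range of the 8 genes. Its level was 0.72, 4.21 and 0.80 TPM in the syngeneic IgG mice and 1189.98, 18983 and 8492 TPM in the Scl-cGVHD IgG mice ID_1535, ID_1537 and ID_1538. In ID_1537 it ranked first among all genes and made up 1.9% of all transcripts, and in ID_1538 it ranked 7. Syngeneic mAb mice had 0.99, 0.49, 28.79, 16.17 and 10.65 TPM. Scl-cGVHD mice had 1112.16, 2.5 and 627.25 TPM at 0.5 mg, and 213, 39.79, 1755.7, 192.36 and 1560.36 TPM at 1 mg. Every 1 mg mouse was thus above every syngeneic mouse. Of the 0.5 mg mice, ID_1539 lay just under the lowest Scl-cGVHD IgG mouse, ID_1541 lay further below it and ID_1540 was at the syngeneic level.

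Saa1 was also highest in Scl-cGVHD IgG mice by group median, at a much lower level than Saa3, with the 1 mg median (7.21 TPM) above the 0.5 mg median (3.88 TPM). It was 0.03, 0.14 and 0 TPM in syngeneic IgG mice and 0.29, 1.41, 0, 1.95 and 1.31 TPM in syngeneic mAb mice. It was 4.78, 71.65 and 51.79 TPM in the Scl-cGVHD IgG mice, 10.94, 0.58 and 3.88 TPM at 0.5 mg, and 7.21, 4.88, 11.73, 7.56 and 3.73 TPM at 1 mg. As for Saa3, every 1 mg mouse was above every syngeneic mouse and ID_1535 was the lowest of its group.

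Saa2 was seen above 6 TPM only in ID_1537 (20.01 TPM) and ID_1538 (61.73 TPM) and was 0.07 TPM in the Scl-cGVHD IgG mouse ID_1535. At 1 mg it was 5.24 TPM in ID_1544 and 0 to 0.93 TPM in the other 4 mice, at 0.5 mg 0 to 0.21 TPM, and in the 8 syngeneic mice 0 to 1.04 TPM. Saa1 exceeded Saa2 in ID_1537 and Saa2 exceeded Saa1 in ID_1538, so the copies did not keep one ratio. The coding transcripts of Saa1 and Saa2 (609 and 606 bases in GENCODE M21) shared 0 of 510 windows of 100 bases. The table lists Saa1 with a length of 2446 bases, that of a transcript that keeps an intron, so its TPM depends on how reads were split between its transcripts.

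**Figure D1:**
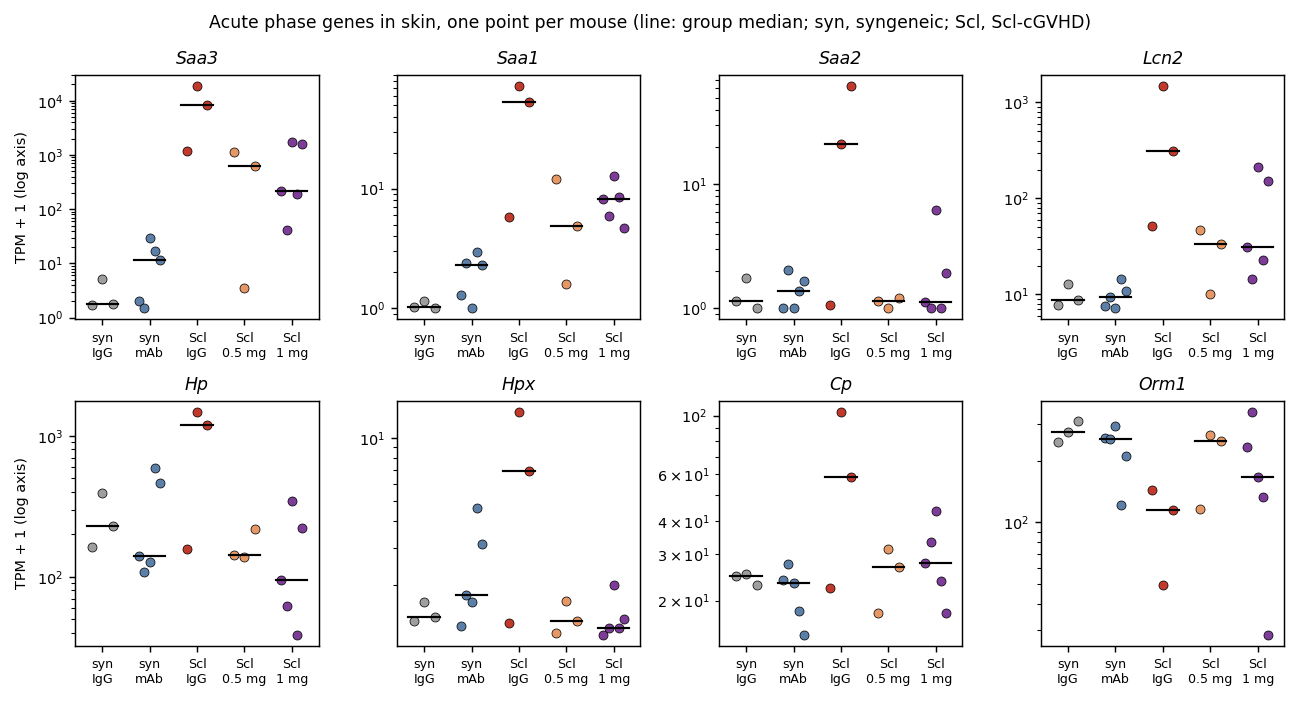
Level of each acute phase gene in every mouse (TPM + 1, log axis), with a point per mouse in 5 groups and a line at the group median. Saa3 in the 5 Scl-cGVHD 1 mg mice (39.79 to 1755.7 TPM) sits above all 8 syngeneic mice, and the Scl-cGVHD IgG mouse ID_1535 is the lowest of its group for Saa1, Saa2, Saa3, Hp, Lcn2, Cp and Hpx.

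Lcn2, which is made by activated keratinocytes and macrophages and stored in neutrophil granules, was 6.84, 11.97 and 7.64 TPM in syngeneic IgG mice and 6.52, 8.37, 6.17, 13.36 and 9.89 TPM in syngeneic mAb mice. It was 50.81, 1495.75 and 309.12 TPM in Scl-cGVHD IgG mice ID_1535, ID_1537 and ID_1538. At 0.5 mg it was 45.93, 9.21 and 32.52 TPM, and at 1 mg 30.47, 13.5, 210.32, 21.75 and 151.53 TPM. The lowest 1 mg mouse lay just above the highest syngeneic mouse, at 13.50 against 13.36 TPM.

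Among the carriers of hemoglobin, heme and copper, Hp was abundant in every group. It was 161.34, 388.66 and 229.20 TPM in syngeneic IgG mice, 106.34 to 589.39 TPM (median 140.41) in syngeneic mAb mice and 156.86, 1473.15 and 1186.84 TPM in Scl-cGVHD IgG mice. It was 141.11, 138.11 and 217.17 TPM at 0.5 mg and 37.97 to 341.14 TPM (median 94.45) at 1 mg, so that the mAb-treated Scl-cGVHD mice overlapped the syngeneic mice and ID_1535. Hp is also an adipocyte gene, and the adipocyte marker sum was 590 TPM in ID_1535, 965 in ID_1537 and 7094 in ID_1538, against 294 to 791 at 1 mg and 3882 to 6938 in syngeneic mice. Its part in the Hp level was not tested.

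Hpx was a gene of low level, at 0.31, 12.27 and 5.95 TPM in Scl-cGVHD IgG mice, 0.18 to 0.68 TPM at 0.5 mg and 0.16 to 1.00 TPM at 1 mg. In syngeneic mice it was 0.28 to 0.79 TPM except in the hair keratin-rich mice ID_1533 (3.63 TPM) and ID_1534 (2.14 TPM), which also had the highest Hp of the syngeneic mice (589.39 and 462.60 TPM). Cp was 21.29, 102.25 and 57.55 TPM in Scl-cGVHD IgG mice and 13.89 to 42.47 TPM in the other 16 mice. Cp thus stood out only in ID_1537 and ID_1538.

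Orm1 differed from the other genes in direction. It was 244.24, 275.73 and 311.61 TPM in syngeneic IgG mice and 142.86, 48.74 and 114.55 TPM in Scl-cGVHD IgG mice. It was 115.87, 265.63 and 247.29 TPM at 0.5 mg, 27.45 to 344.08 TPM (median 165.32) at 1 mg and 120.16 to 293.72 TPM (median 254.32) in syngeneic mAb mice. Orm2, its close copy, was 21.35 TPM in ID_1537 and 6.08 TPM in ID_1538 but 0.15 to 3.89 TPM in all other mice. Of 676 windows of 100 bases in Orm1, 47 were also in Orm2, so a small share of reads could not be assigned to one gene.

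By group medians the order for Saa3 was Scl-cGVHD IgG (8492 TPM), 0.5 mg (627.25), 1 mg (213), syngeneic mAb (10.65) and syngeneic IgG (0.80). Neighbours in that order overlapped between the doses and between the syngeneic groups. The order for Lcn2 was the same, with medians of 309.12, 32.52, 30.47, 8.37 and 7.64 TPM and the same overlaps. For Saa1, Saa2, Hp, Hpx, Cp and Orm1 all neighbouring groups overlapped.

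For Scl-cGVHD against syngeneic mice given IgG, 7 of the 8 genes had a positive difference. On the log2(TPM + 1) scale it was 11.16 for Saa3, 4.91 for Lcn2, 4.73 for Saa1, 3.16 for Saa2, 1.76 for Hpx, 1.42 for Hp, 1.08 for Cp and -1.56 for Orm1. Groups did not overlap for Saa1, Saa3 and Lcn2, which were higher (10.4% of all genes), and for Orm1, which was lower (41% of all genes). This contrast was in view when the genes were listed. The median difference of all 16350 genes tested was -0.33, and 24.7% of them passed an adjusted p of 0.05.

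Whether the genes were higher in diseased skin was tested in mice outside the contrast that was in view. Scl-cGVHD mice given 1 mg of mAb were compared with syngeneic mice given mAb (limma, Benjamini-Hochberg adjustment over all 16350 genes). Earlier results of these data were known when the genes were listed, so these mice may not be wholly independent of the choice. Saa3, Saa1 and Lcn2 rose, and no other gene of the 8 passed the test. Saa3 was higher by 5.59 on the log2(TPM + 1) scale (SE 1.48, adjusted p = 0.00893). Saa1 was higher by 2.04 (SE 0.61, adjusted p = 0.0161) and Lcn2 by 2.41 (SE 0.82, adjusted p = 0.0322). The 3 genes were higher in every 1 mg mouse than in every syngeneic mAb mouse, as were 5.96% of all genes. In this comparison 36.3% of all genes passed, 7.99% as higher and 28.3% as lower, and the median of all genes was -0.32. Under 3 other scalings the 3 genes still passed the test.

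The remaining 5 genes had differences of 0.31 (Saa2, SE 0.78), 0.40 (Cp, SE 0.32), -0.98 (Hp, SE 0.70), -0.69 (Hpx, SE 0.46) and -0.66 (Orm1, SE 0.52), with limma adjusted p of 0.238 to 0.769. The sum of Saa1 and Saa2 was higher by 1.98 (SE 0.71, limma adjusted p = 0.0392). The call for Lcn2 depended on single mice. Its limma adjusted p was 0.0559 to 0.0886 when ID_1530, ID_1531, ID_1532, ID_1544 or ID_1546 was left out. Of 12 neutrophil markers, S100a9 (3.93, SE 1.26) and Cxcr2 (3.07, SE 0.45) also rose, and the summed neutrophil markers were 128 to 6405 TPM at 1 mg against 61 to 100 TPM in syngeneic mAb mice, in which 6 of the 12 were below 1 TPM in every mouse. Of 10 markers of wound-activated keratinocytes 8 rose, among them Krt16 (6.62, SE 0.98), with sums of 2796 to 32498 against 960 to 3002 TPM. Of 10 macrophage markers 4 rose, among them C1qb (1.83, SE 0.17), with sums of 2525 to 4572 against 1057 to 1727 TPM, and of 10 adipocyte markers 9 fell. Of 8 epidermal markers 4 rose and 1 fell. Of fibroblast markers 7 of 8 fell and of sebaceous gland markers 8 of 9, where 28.3% of all genes fell. The part of these cells in the results for Saa3, Saa1 and Lcn2 was not tested.

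At 0.5 mg against syngeneic mAb no gene of the 8 passed the test (16% of all genes passed, 2.91% as higher). Saa3 differed by 4.25 (SE 1.71, limma adjusted p = 0.0922), Lcn2 by 1.40 (SE 0.95) and Saa1 by 1.29 (SE 0.70). Saa3 was the only one of the 8 at an unadjusted p under 0.05, as were 34.6% of all genes. Without ID_1540, whose Saa3 level was 2.5 TPM, Saa3 (6.89, limma adjusted p = 0.00374) and Saa1 (2.05, limma adjusted p = 0.0367) passed the test, and 5.69% of all genes then rose. ID_1540 was the lowest 0.5 mg mouse for both genes (0.58 TPM for Saa1). Leaving it out thus widens both differences, and these values are no test of a rise at 0.5 mg.

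**Figure D2:**
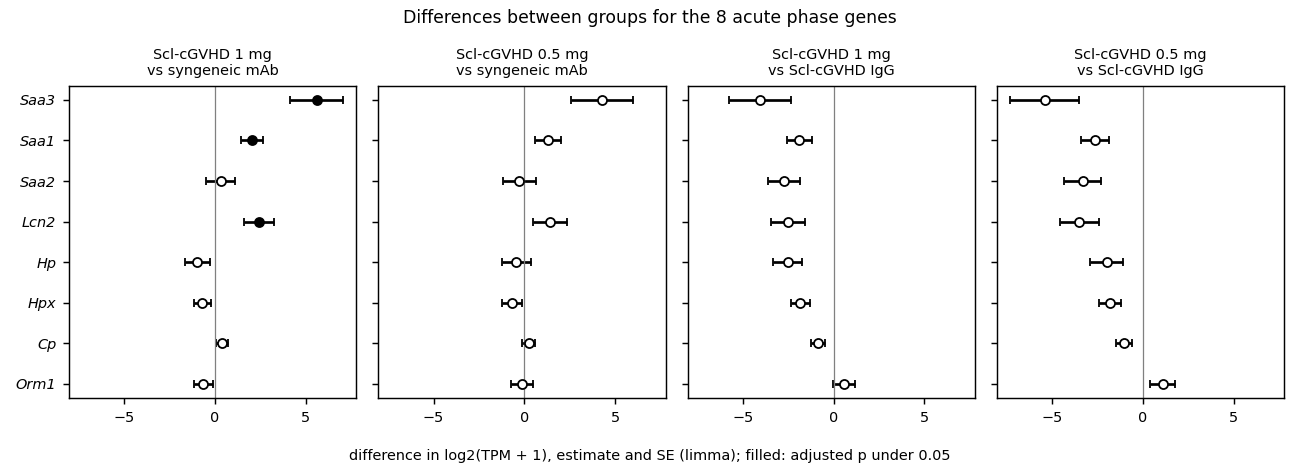
Difference in log2(TPM + 1) for each of the 8 genes in 4 comparisons, as the limma estimate with its SE and filled where the adjusted p was under 0.05. Saa3 (5.59), Saa1 (2.04) and Lcn2 (2.41) are filled for 1 mg against syngeneic mAb, and no gene is filled elsewhere.

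The effect of the mAb was asked by comparing each dose with Scl-cGVHD IgG. Both comparisons use the same 3 IgG mice, which also stood in the contrast that was in view when the genes were listed. Negative differences were therefore favored by that choice at both doses, and nothing is read from their number, median or unadjusted p. At 1 mg, 7 of the 8 genes had a negative difference and 0 passed the test, as 0% of all genes passed. The differences were -4.08 for Saa3 (SE 1.71), -2.73 for Saa2 (SE 0.90), -2.54 for Hp (SE 0.80), -2.51 for Lcn2 (SE 0.95), -1.89 for Saa1 (SE 0.70), -1.84 for Hpx (SE 0.53) and -0.88 for Cp (SE 0.38). All 7 were at an unadjusted limma p under 0.05, as were 10.2% of all genes, and their limma adjusted p was 0.301 to 0.43. The median was -2.20 over the 8 genes and -0.01 over all genes. Orm1 differed by 0.56 (SE 0.60). No gene of the 8 separated the groups (2.78% of all genes were lower in every 1 mg mouse), since ID_1535 lay within the range of the treated mice for Saa1, Saa2, Saa3, Hp, Lcn2, Cp, Hpx and Orm1.

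At 0.5 mg, 7 of the 8 differences were again negative and 0 genes passed (0.055% of all genes, 9 genes, passed). They were -5.42 for Saa3 (SE 1.91), -3.52 for Lcn2 (SE 1.07), -3.33 for Saa2 (SE 1.01), -2.64 for Saa1 (SE 0.78), -2.0 for Hp (SE 0.90), -1.83 for Hpx (SE 0.60) and -1.05 for Cp (SE 0.42). All 7 were at an unadjusted limma p under 0.05, as were 14.5% of all genes, with limma adjusted p of 0.158 to 0.317. Every 0.5 mg mouse was below every IgG mouse for Saa3 and Lcn2, and for 6.88% of all genes. For Saa3 that gap was narrow, 1112.16 against 1189.98 TPM.

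These counts changed with ID_1535. It was the lowest Scl-cGVHD IgG mouse for Saa1, Saa2, Saa3, Hp, Lcn2, Cp and Hpx. Leaving it out thus widens their differences from the treated mice, and what follows is no test of the mAb. With ID_1535 left out, 6 of the 8 genes were lower at 1 mg by the limma test, where 2.02% of all genes were. They were Saa2 (-4.43, adjusted p = 0.00345), Hpx (-2.80, adjusted p = 0.00345), Saa1 (-3.03, adjusted p = 0.0108), Cp (-1.48, adjusted p = 0.0185), Hp (-3.57, limma adjusted p = 0.021) and Lcn2 (-3.75, limma adjusted p = 0.0331). Saa3 differed by -5.22 (limma adjusted p = 0.158). At 0.5 mg 5 genes passed without ID_1535 (Saa1, Saa2, Lcn2, Cp and Hpx), where 3.34% of all genes were lower. Without ID_1537 or without ID_1538, 0 genes passed at either dose. The labels give no ground to leave out ID_1535, so the values with all 3 mice are the ones reported.

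**Figure D3:**
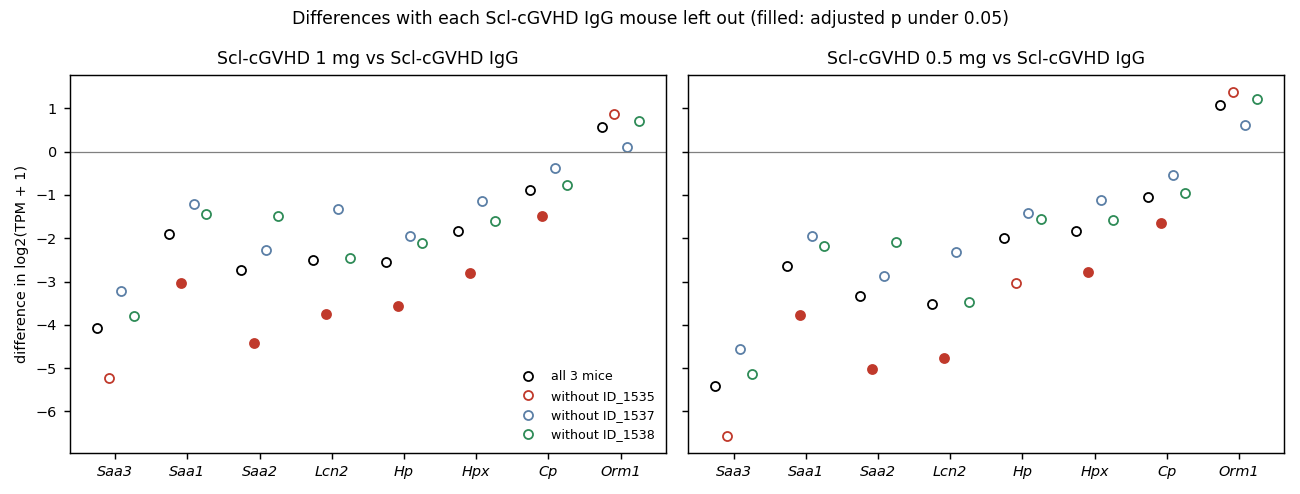
Difference in log2(TPM + 1) between each mAb dose and Scl-cGVHD IgG with all 3 IgG mice and with each of them left out, filled where the limma adjusted p was under 0.05. Without ID_1535, 6 genes are filled at 1 mg and 5 at 0.5 mg, and no gene is filled with all mice or without ID_1537 or ID_1538.

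The doses were compared with each other in mice outside the contrast that was in view when the genes were listed. At 1 mg against 0.5 mg, 0 of the 8 genes passed the limma test (0% of all genes, adjusted p of 1 for each), and 0 were at an unadjusted p under 0.05 (5.29% of all genes). Saa3 differed by 1.34 (SE 1.71) and by -1.29 when ID_1540 was left out. In syngeneic mice the mAb against IgG changed 0 of the 8 genes (0% of all genes, limma adjusted p of 1 for each), 0 at an unadjusted p under 0.05 (0.703% of all genes), with Saa3 at 1.48 (SE 1.71). The response of Scl-cGVHD mice to 1 mg of mAb less that of syngeneic mice passed for 0 of the 8 genes (0% of all genes, limma adjusted p of 1 for each). It contains, with the opposite sign, the contrast on which the genes were selected, so negative values were favored by that choice and nothing is read from them. At an unadjusted p under 0.05 were 4 of the 8 (3.56% of all genes), all negative: Hpx (-2.45, SE 0.76), Saa1 (-2.70, SE 0.99), Saa3 (-5.56, SE 2.41) and Saa2 (-2.85, SE 1.27).

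Within the 11 Scl-cGVHD mice the ranks of Saa3 and Lcn2 were the same mouse by mouse (Spearman's rho 1.0, Pearson's r 0.896 of log2(TPM + 1)). Without ID_1540 and ID_1543, the mice farthest from the median of Saa3, r was 0.938 over 9 mice, and over the 8 syngeneic mice it was 0.313. Saa3 with Hp had r = 0.731, Saa3 with Cp 0.417 and Saa3 with Orm1 -0.654 over the 11 mice. Saa1 and Saa2 had r = 0.848. These correlations describe mice of 3 groups, whose TPM share the scaling of each library, and ID_1537 and ID_1538 were high in 7 of the 8 genes.

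Among the 9878 tested genes that averaged 5 TPM or more in those 11 mice, the 5 most like Saa3 were Atf4 (r = 0.975), Hbegf (0.962), Tnfrsf12a (0.96), Capg (0.954) and Junb (0.949). Atf4 and Junb are transcription factors of stress and early responses, Hbegf is a ligand of the EGF receptor, Tnfrsf12a is the receptor of TWEAK and Capg caps actin filaments. The 5 most like Lcn2 were Procr (r = 0.988), the endothelial protein C receptor, Fpr2 (0.98), a formyl peptide receptor that also binds serum amyloid A, Pglyrp1 (0.976), a neutrophil granule protein, Tmem8 (0.973) and Wfdc17 (0.971). Among those most like Saa1 were C1qa (r = 0.949), a complement subunit made by macrophages, Ccl6 (0.934), a chemokine of myeloid cells, Gmfg (0.932) and Lgmn (0.931), a lysosomal protease.

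**Figure D4:**
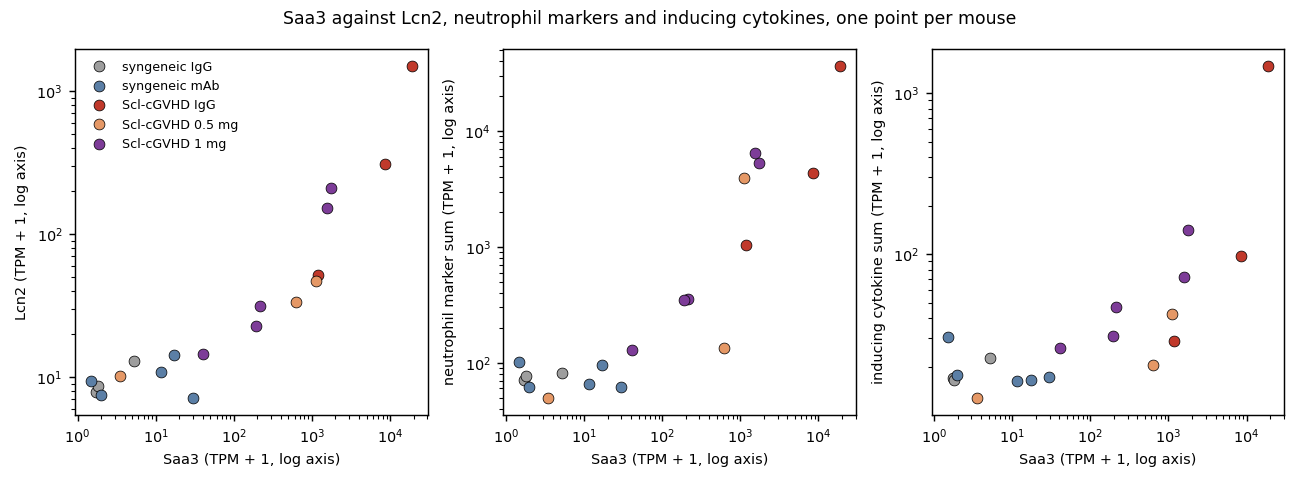
Saa3 (TPM + 1, log axis) against Lcn2, the summed neutrophil markers and the summed inducing cytokines (TPM + 1, log axes), with a point per mouse in the color of its group. Lcn2 keeps the order of Saa3 in the 11 Scl-cGVHD mice (rho 1.0), and ID_1537 is highest in all 3 panels.

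The cytokines that induce the acute phase were examined first among the other genes of the pathway, whose counts are to be read against all genes: 24.7% were called in Scl-cGVHD against syngeneic IgG skin, and 7.99% rose and 28.3% fell at 1 mg against syngeneic mAb. The cytokines were Il6, Il1a, Il1b, Tnf, Osm, Lif, Il11, Il17a, Il17f and Il22, of which 6 were tested. In Scl-cGVHD against syngeneic IgG skin, 3 of 6 rose by limma, namely Osm (3.68, SE 0.82), Il6 (3.16, SE 1.06) and Il1a (1.91, SE 0.52), and the median of the 6 was 2.68. Il6 was 0.46, 122.79 and 7.21 TPM in ID_1535, ID_1537 and ID_1538, and at most 1.61 TPM in every other mouse but ID_1544 (9.28 TPM). Il1b was 9.17, 1049.22 and 45.52 TPM in the same 3 mice. ID_1535 was the lowest of its group for Il6, Il1b and Saa3. Its Il6 lay within the syngeneic range (0.15 to 0.79 TPM), as did its Il1b (4.79 to 10.87 TPM). Its Osm, at 2.47 TPM, was above that of every syngeneic mouse (at most 0.53 TPM). Its Saa3 (1189.98 TPM) was above that of every syngeneic mouse (at most 28.79 TPM). Whether these cytokines bear on the Saa3 level was not tested. At 1 mg against syngeneic mAb only Il1a rose (1.53, SE 0.40, limma adjusted p = 0.00818), and the median of the 6 was 1.2. Over the 11 Scl-cGVHD mice Saa3 had r = 0.769 with the summed cytokines and 0.885 with the summed neutrophil markers. With summed markers of wound-activated keratinocytes, macrophages and adipocytes r was 0.848, 0.732 and 0.001. Over the 8 syngeneic mice the r with these sums were -0.394, -0.182, 0.537, -0.574 and -0.493, in the same order.

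Of 19 receptors and signalling genes of these cytokines, 3 rose and 0 fell in Scl-cGVHD IgG skin, a share below the 24.7% of all genes called there. The 3 were Socs3, the feedback inhibitor of IL-6 signalling (3.32, SE 0.61), Stat3, its transcription factor (0.71, SE 0.16), and Cebpb, a C/EBP factor (1.31, SE 0.37). With 1 mg against syngeneic mAb, Stat3 (0.83, SE 0.12), Socs3 (1.28, SE 0.47) and Il17rc, a subunit of the IL-17 receptor (0.58, SE 0.22), rose, and at 0.5 mg Stat3 (0.57, SE 0.14) and Cebpd, another C/EBP factor (1.33, SE 0.40). Socs3 was 40.77 to 419.61 TPM in Scl-cGVHD IgG mice, 11.35 to 38.75 at 0.5 mg, 30.29 to 76.01 at 1 mg and 9.94 to 24.55 in syngeneic mice.

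Other positive acute phase proteins did not move as one group. Of 25, 16 were tested, and in Scl-cGVHD IgG skin 4 rose and 1 fell, a share near the 24.7% of all genes called in that contrast. The zinc- and copper-binding metallothioneins Mt2 (2.37, SE 0.59) and Mt1 (2.14, SE 0.56) rose with Itih3, a hyaluronan-binding inhibitor chain (0.88, SE 0.28), and complement factor Cfb (0.91, SE 0.30). Hamp, the iron hormone hepcidin, fell by 2.70 on the log2 scale (SE 0.51). At 1 mg against syngeneic mAb Mt2 (1.70, SE 0.46) and Mt1 (1.40, SE 0.43) rose, while Hamp (-2.04, SE 0.39), Orm3 (-1.34, SE 0.38), the lipopolysaccharide-binding protein Lbp (-1.52, SE 0.47) and C-reactive protein Crp (-0.60, SE 0.23) fell. There 4 of 16 fell, near the 28.3% of all genes that fell, and the median of the 16 was -0.28, against -0.32 for all genes. In Scl-cGVHD against syngeneic IgG skin that median was 0.78, against -0.33 for all genes. Against Scl-cGVHD IgG, which shares its mice with that contrast, it was -0.89 at 1 mg and -0.64 at 0.5 mg. The medians of all genes were -0.01 and -0.005 there. Serpina3n, a protease inhibitor, was 107.27, 522.74 and 869.22 TPM from the lowest to the highest Scl-cGVHD IgG mouse and 50.67 to 234.46 TPM in all others.

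The negative acute phase proteins, which the liver makes less of during inflammation, had 6 of 9 members tested. In Scl-cGVHD IgG skin the retinol carrier Rbp4 (-3.34, SE 0.68) and albumin (Alb, -1.98, SE 0.40) fell and Fetub, a fetuin, rose (1.53, SE 0.44). In 1 mg mice against syngeneic mAb mice, Rbp4 (-3.27, SE 0.53), Alb (-1.84, SE 0.31) and Apoa2, an apolipoprotein (-0.89, SE 0.27), fell and 0 rose. Of 12 hepatocyte markers, 7 to 10 per group were below 1 TPM in every mouse of the group, and the others were not. Alb was at most 8.43 TPM, Hnf4a at most 0.09, Apob at most 0.40 and Fgb at most 0.11 TPM. These are low members of the list, and its high sums came from other members. The summed 12 hepatocyte markers, 4.43 to 786 TPM, followed the level of few genes. They were 402 to 567 TPM in syngeneic IgG mice, up to 786 TPM in Scl-cGVHD IgG mice and 11.8 TPM in ID_1537, which had the highest Saa3.

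Among receptors and partners (16 of 17 tested), 5 rose and 3 fell in Scl-cGVHD IgG skin, where 24.7% of all genes were called. Fpr2 was higher by 3.75 (SE 0.93), Hmox1, which degrades the heme that Hpx delivers, by 1.89 (SE 0.41), Tlr2, a receptor that senses serum amyloid A, by 1.81 (SE 0.43), and Mmp9, a protease that forms a complex with Lcn2, by 3.01 (SE 0.67). Slc22a17, a receptor of Lcn2, fell by 1.66 on the log2 scale (SE 0.30), from 7.18 to 7.99 TPM in syngeneic IgG mice to 1.47 to 1.91 TPM. In the 1 mg comparison with syngeneic mAb, Mmp9 (2.59, SE 0.52) and Hmox1 (1.00, SE 0.32) rose. There 5 fell, a share near the 28.3% of all genes that fell. Among the 5 were Slc22a17 (-1.38, SE 0.23), the scavenger receptor Cd36 (-1.74, SE 0.36), the ferroxidase Heph (-1.72, SE 0.41) and Lrp1, the receptor that takes up Hpx with its heme (-0.70, SE 0.25). Cd163, the macrophage receptor that takes up Hp with hemoglobin, was 12.49 to 112.74 TPM in Scl-cGVHD IgG mice and 5.70 to 86.71 TPM in the other 16 mice, and passed no test.

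Iron handling genes (12 tested) gave 2 that rose and 2 that fell in Scl-cGVHD IgG skin, and 2 that rose and 4 that fell at 1 mg against syngeneic mAb. These shares were not far from those of all genes (24.7% called in the IgG contrast, 7.99% higher and 28.3% lower at 1 mg). Slc11a1, the iron transporter of phagosomes, rose in both comparisons (1.85, SE 0.45, and 1.08, SE 0.35), and the ferrireductase Steap3 fell in both (-1.55, SE 0.41, and -1.31, SE 0.32). The iron exporter Slc40a1 fell at 1 mg (-2.13, SE 0.60) and at 0.5 mg (-2.17, SE 0.69). No gene of these 6 lists passed the limma test at 1 mg or 0.5 mg against Scl-cGVHD IgG.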

How the data were processed

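RNA from the skin of 19 mice was made by the authors into stranded mRNA libraries. The reads were trimmed with Trimmomatic, aligned to GRCm38 (Ensembl annotation) with STAR 2.5.2b and quantified with RSEM 1.2.31. The deposited values are TPM for 50686 genes, scaled by the authors to the same total in each mouse, so that very abundant transcripts in a mouse lower its other values. The deposited counts of uniquely mapped read pairs, 20325491 to 35005382 (median 26198028) over 19 libraries, are named by group only and served as a range. They do not give the precision of a single mouse, and errors came from the spread between mice.

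Groups came from the labels. Log2(TPM + 1) was tested with limma 3.58.1 in R 4.3.3 (variance trend, robust prior). The fit took the 16350 genes that reached 1 TPM in 3 mice or more, all 5 groups in one fit, two-sided, with Benjamini-Hochberg adjustment and a threshold of 0.05. Differences are on this scale and understate those of low genes. The procedure was tested on simulated data. The genes and gene lists were chosen with earlier results of these data known. Of the other lists, up to 4 called genes with the smallest p were named, with Cd163, Lrp1, Slc22a17 and Fpr2, and genes alike by Pearson's r over the 11 Scl-cGVHD mice, leaving out numbered gene models and antigen receptor segments. Marker genes, Il1b, Serpina3n, Orm2, Cfb, Lbp and Crp, and Hmox1 and Slc11a1 at 1 mg, were named after their values were seen. Alternatives were 3 scalings, 0.1 as the pseudocount, leaving out the filter or raising it to 5 TPM, no robust prior, the compared groups alone and each mouse left out. Alternatives for counts were not run on TPM. Promoter sequences are from RefSeq, with 6 of the 8 genes in the table used. One gene that the rule on likeness names is not reported here.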

Additional observations from a re-analysis of the deposited data

Results flagged for a closer look

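Over 16 groups of 5 mice (8 genes in syngeneic mAb and in Scl-cGVHD 1 mg mice), 2 values lay far from the rest of their group by Dixon's criterion. Chance alone meets it in about 1 in 20 independent groups of normal values. The 8 genes share the same mice and low TPM can be skewed, so that rate is only a rough guide here. Saa2 was 5.24 TPM in the Scl-cGVHD 1 mg mouse ID_1544, where the other 4 mice had 0 to 0.93 TPM. Hpx was 1.00 TPM in the same mouse, where the others had 0.16 to 0.38 TPM. ID_1544 also had the highest Saa3, Lcn2, Hp, Cp and Saa1 of the 1 mg mice.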

How the results depend on the processing

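No difference reversed as a call under any alternative that was run. The number of the 8 genes called stayed the same under every scaling, pseudocount, filter and prior and in the compared groups alone: 3 at 1 mg against syngeneic mAb and 0 in the other comparisons. With each mouse left out in turn, it ran from 2 to 3 at 1 mg against syngeneic mAb, from 0 to 6 at 1 mg and from 0 to 5 at 0.5 mg against Scl-cGVHD IgG, and from 0 to 2 at 0.5 mg against syngeneic mAb, and it stayed at 0 for the doses against each other, in syngeneic mice and for the difference of responses. The highest counts came without ID_1535 or ID_1540. At 1 mg against syngeneic mAb, the difference of Saa3 ran from 5.59 to 6.26, of Saa1 from 2.04 to 3.24 and of Lcn2 from 2.41 to 2.77 over the settings other than leaving out a mouse. Differences that passed no test could change sign, as did Orm1 at 0.5 mg against syngeneic mAb under median-ratio factors (0.25, against -0.14). Leaving out ID_1533 and ID_1534, chosen after seeing the data, kept 3 genes called at 1 mg against syngeneic mAb. No paired analysis was possible because each mouse has its own number and no group shares one with another. Groups of 3 mice limit what could be detected, and the depth of each mouse is unknown.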
